A study of Mus musculus with 6 samples.

Results

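The 8 genes described here carry out antigen presentation on MHC class II: Cd74, H2-Aa, H2-Ab1, H2-Eb1, H2-DMa, H2-DMb1, H2-Oa and Ciita. They were taken by their symbols from the 31053 genes of the count tables, and all 8 have a row. The genes were chosen by their UMI levels across the cell classes of these same libraries, so the levels below are a description without a test. They were followed through 10 cell classes of 6 single-cell RNA sequencing libraries of mouse pancreas.

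The mice carried R26[CA]30EYFP, an allele that marks some cells with the yellow fluorescent protein EYFP, and had a C57Bl/6J background. EYFP positive and EYFP negative pancreatic cells were sequenced apart, each as 1 library in each of 3 runs. The groups were EYFP positive cells in pancreatitis (run 3), EYFP positive cells in homeostasis (runs 1 and 2), EYFP negative cells in pancreatitis (run 3) and EYFP negative cells in homeostasis (runs 1 and 2). Pancreatitis was induced with cerulein at 50 ug/kg, given as 7 injections on each of 2 days, and cells were taken on day 9. The homeostasis mice had no treatment. Both pancreatitis libraries belong to run 3, so an effect of pancreatitis and one of the run cannot be told apart. The labels do not name separate animals for the libraries, so p-values measure only the spread between these libraries, which may be technical.

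MHC class II molecules are pairs of an alpha and a beta chain that display peptides from endosomes to CD4 T cells. In the mouse, H2-Aa and H2-Ab1 encode the I-A pair, and H2-Eb1 encodes the beta chain of I-E, whose alpha chain gene H2-Ea is not functional on the C57BL/6 background. Cd74 is the invariant chain, which fills the peptide groove during assembly. H2-DMa and H2-DMb1 encode H2-M, which exchanges the last piece of Cd74 for a peptide, and H2-Oa encodes a chain of H2-O, an inhibitor of H2-M. Ciita is the co-activator that sets class II transcription. B cells, dendritic cells and many macrophages express these genes constitutively, endothelium can be induced by interferon gamma, and mouse T cells lack the class II chains.

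H2-Aa, H2-Eb1, H2-DMb1 and H2-Oa each have 1 entry in the RefSeq promoter table for GRCm38.p6. Ciita acts through factors bound at X and Y boxes, so the last 120 bases before each start are shown, 5′ to 3′ on the gene's own strand, with matches to 2 motifs in capitals. These are AACNNATGATG, X-box-like, and TGATTGG, which holds the inverted CCAAT of a Y box. Both were written down after the sequences had been read. The windows are chr17:34287824-34287943 (minus strand) for H2-Aa, chr17:34305747-34305866 (plus strand) for H2-Eb1, chr17:34153071-34153190 (plus strand) for H2-DMb1 and chr17:34092259-34092378 (plus strand) for H2-Oa.
H2-Aa: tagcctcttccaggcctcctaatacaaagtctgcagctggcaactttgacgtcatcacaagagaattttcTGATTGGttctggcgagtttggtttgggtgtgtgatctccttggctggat
H2-Eb1: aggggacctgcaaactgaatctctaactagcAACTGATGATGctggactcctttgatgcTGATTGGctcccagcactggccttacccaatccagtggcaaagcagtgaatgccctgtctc
H2-DMb1: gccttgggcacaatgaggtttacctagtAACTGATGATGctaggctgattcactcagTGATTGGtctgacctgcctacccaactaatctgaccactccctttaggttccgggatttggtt
H2-Oa: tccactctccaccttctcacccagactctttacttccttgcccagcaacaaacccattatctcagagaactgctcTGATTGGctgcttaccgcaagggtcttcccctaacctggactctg

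Both motifs were present in H2-Eb1 and H2-DMb1. In H2-Eb1 the X-box-like match began 89 bases and the Y-box-like match 61 bases before the start, with 17 bases between them. In H2-DMb1 they began 92 and 63 bases before the start, with 18 bases between them. H2-Aa held only the Y-box-like match, 50 bases before the start, and H2-Oa only the Y-box-like match, 45 bases before it. Over both strands of all 32851 promoter entries, which hold 300 bases each, the X-box-like motif occurred in 45 (0.137%), the Y-box-like motif in 2568 (7.82%) and both in 9 (0.0274%). H2-Ob and H2-DMb2, the neighbours that encode the other chain of H2-O and a second H2-M beta chain, held both motifs as well, and the 2 entries of H2-DMa held neither. A match says only that these letters are present.

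The libraries held 1002, 220 and 467 barcodes in EYFP positive runs 1, 2 and 3, and 810, 2490 and 3593 in EYFP negative runs 1, 2 and 3, with 1044718 to 23658431 UMIs (unique molecules counted) each. Filtering left 4888 of 8582 barcodes, from 187 in EYFP positive run 2 to 1759 in EYFP negative run 2. Class II genes were kept out of the clustering, and when they were let in 99.3% of the cells kept their class. Levels are CPM, the UMIs of a gene relative to all UMIs of the class in a library, and are given where a library held at least 10 cells of the class. CPM count captured transcript ends and are not per length, so a gene is compared across classes and not with other genes. The tables share barcodes: 101 occurred in 2 libraries, 97 of them in the EYFP positive and EYFP negative libraries of the same run, and 86 of those 97 had the same class in both. They made up 22 of 26 ductal-like cells, 15 of 24 T or NK-like cells and 6 of 12 phagocyte-like cells of EYFP positive run 2. Tests were therefore also run without them in B-like, endothelial-like and T or NK-like cells. In phagocyte-like and ductal-like cells too few libraries then kept 10 cells, so those results could not be checked in this way. Barcodes under 200 genes, taken as a view of free RNA, held summed class II levels of 35.1, 52.5 and 80.6 CPM without haemoglobin genes in EYFP positive runs 1, 2 and 3, and of 557, 1064 and 221 CPM in EYFP negative runs 1, 2 and 3.

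Mononuclear phagocyte-like and B-like cells carried the 8 genes at levels far above every other class. Their summed level averaged 38335 ± 13440 CPM in phagocyte-like cells (SD, n = 5 libraries) and 27877 ± 2889 CPM in B-like cells (SD, n = 6), and these ranges overlapped. Plasma-like cells followed at 4236 ± 3700 CPM (SD, n = 4), between 342 and 7706 CPM, below every B-like library. T or NK-like cells averaged 317 ± 303 CPM (SD, n = 6), endothelial-like cells 213 ± 226 CPM (SD, n = 6), ductal-like cells 101 ± 137 CPM (SD, n = 6), fibroblast-like cells 95.6 ± 95.8 CPM (SD, n = 3) and acinar-like cells 276 ± 490 CPM (SD, n = 5). The ranges of these 5 classes overlapped with each other. On the log2 scale and within libraries, B-like cells stood 6.90 and phagocyte-like cells 7.24 above T or NK-like cells, with SDs of 1.19 and 1.14 between libraries.

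**Figure D1:**
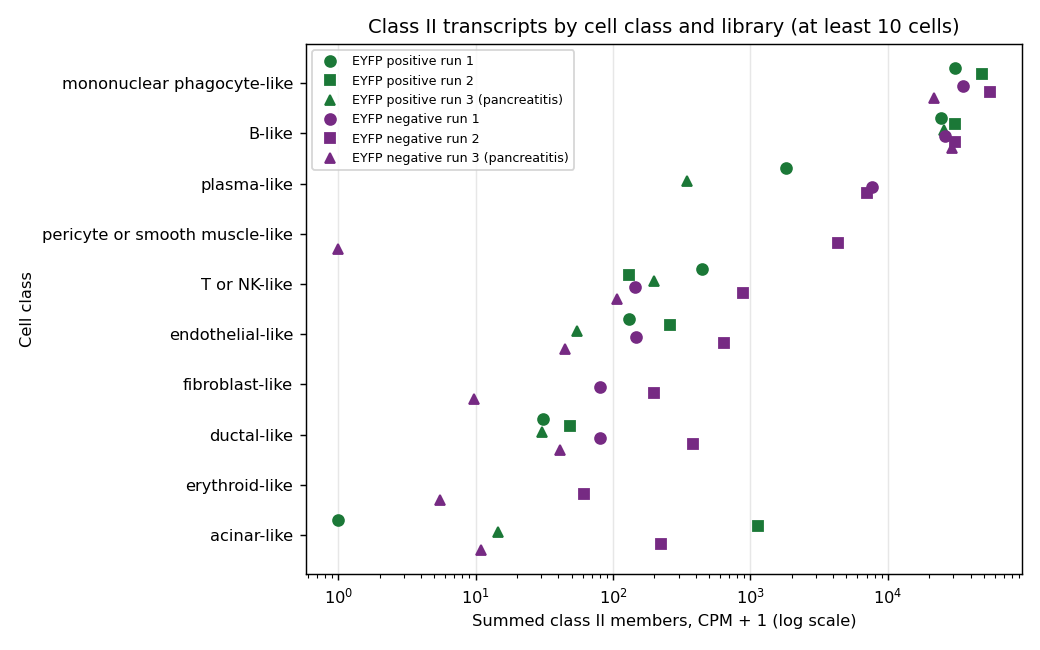
Summed class II level, in CPM + 1 on a log scale, for each cell class with at least 10 cells in a library. Each point is 1 library, green for EYFP positive and purple for EYFP negative, with triangles for pancreatitis. Phagocyte-like and B-like cells lie at or above 21799 CPM in every library, and EYFP negative run 2 (purple square) is the highest library among T or NK-like, endothelial-like, fibroblast-like and ductal-like cells.

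B-like cells varied less between libraries than phagocyte-like cells. Their summed level was 24343, 30884 and 25567 CPM in EYFP positive runs 1, 2 and 3, and 26164, 31038 and 29268 CPM in EYFP negative runs 1, 2 and 3. No group stood apart from another. The median single B-like cell stood between 24116 and 31011 CPM of class II across the 6 libraries. After every cell was thinned to 1000 UMIs, 99.5% of B-like cells still held at least 1 class II UMI (mean of 6 libraries), and 99.8% did so without thinning. Only 4 B-like cells held none, 2 each in EYFP negative runs 2 and 3. The depth behind these values was 3148 class II UMIs in the smallest B-like library and 70249 in the largest.

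Cd74 lies on chromosome 18, Ciita on chromosome 16 and the other 6 genes on chromosome 17. Among the chain genes in B-like cells, Cd74 averaged 16092 ± 2329 CPM (SD, n = 6), between 12999 and 19080 CPM. H2-Aa averaged 4388 ± 301 CPM, H2-Ab1 2884 ± 369 CPM and H2-Eb1 3475 ± 498 CPM (SD, n = 6 each). H2-Aa varied by a smaller share of its mean than the other chains.

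The editors and the co-activator were present in every B-like library. H2-DMa averaged 421 ± 37.0 CPM, H2-Oa 281 ± 27.9 CPM, Ciita 217 ± 37.5 CPM and H2-DMb1 121 ± 43.8 CPM (SD, n = 6 each). H2-DMb1 has the near-identical paralog H2-DMb2, at 620 ± 105 CPM in B-like cells (SD, n = 6), and how the authors' counting shared reads between them is uncertain. H2-Ob, the partner chain of H2-Oa, averaged 335 ± 48.8 CPM (SD, n = 6).

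Phagocyte-like cells spread wider than B-like cells, both between libraries and between cells. Their summed level was 31011 and 48295 CPM in EYFP positive runs 1 and 2, and 35292, 55277 and 21799 CPM in EYFP negative runs 1, 2 and 3. The pancreatitis library, EYFP negative run 3, was the lowest and EYFP negative run 2 the highest. EYFP positive run 3 had 8 phagocyte-like cells, too few for the comparison, and held 34368 CPM. In EYFP negative run 2 the lower and upper quartiles of the cells were 6356 and 74241 CPM of class II, and in EYFP negative run 3 they were 256 and 42939. Thinned to 1000 UMIs, 86.2%, 95.3% and 55.6% of phagocyte-like cells held a class II UMI in EYFP negative runs 1, 2 and 3, against 93.8%, 97.5% and 77.3% unthinned.

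In phagocyte-like cells Cd74 averaged 18829 ± 6397 CPM, H2-Aa 6983 ± 2321 CPM, H2-Ab1 5076 ± 2000 CPM and H2-Eb1 6469 ± 2695 CPM (SD, n = 5 each). H2-DMa averaged 398 ± 107 CPM, H2-DMb1 339 ± 159 CPM, H2-Oa 93.4 ± 64.9 CPM and Ciita 146 ± 88.1 CPM (SD, n = 5 each). H2-Oa was the gene for which no phagocyte-like library reached any B-like library, with a highest value of 165 CPM in phagocyte-like cells and a lowest of 236 CPM in B-like cells. For the other 7 genes the ranges of these classes overlapped.

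Ratios to Cd74 within a library take out how much class II RNA a class held in all. Relative to 100 Cd74 UMIs, phagocyte-like cells held a median of 35.8 H2-Aa, 25.5 H2-Ab1 and 35.2 H2-Eb1 UMIs, against 26.4, 19.6 and 22.9 in B-like cells, higher in 5 of 5 libraries for each gene. H2-Oa went the other way, with a median of 0.361 in phagocyte-like cells and 1.73 in B-like cells, lower in 5 of 5 libraries. H2-DMb1 had a median of 1.80 in phagocyte-like cells and 0.649 in B-like cells, higher in 4 of 5 libraries, the exception being EYFP positive run 1 with 4 H2-DMb1 UMIs. H2-DMa and Ciita were each higher in phagocyte-like cells in 1 of 5 libraries. H2-DMb2 and H2-Ob averaged 154 ± 130 and 36.7 ± 29.1 CPM in phagocyte-like cells (SD, n = 5 each), against 620 ± 105 and 335 ± 48.8 CPM in B-like cells (SD, n = 6 each).

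**Figure D2:**
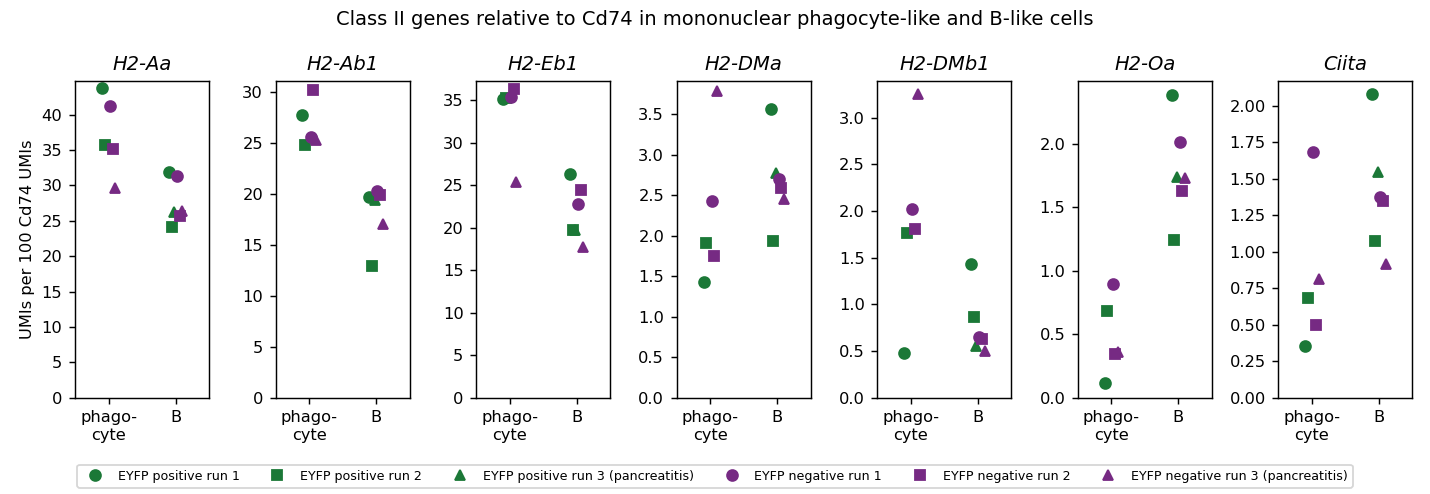
UMIs of 7 class II genes per 100 Cd74 UMIs in phagocyte-like cells (left in each panel) and B-like cells (right). Each point is 1 library, green for EYFP positive and purple for EYFP negative. H2-Aa, H2-Ab1 and H2-Eb1 lie higher and H2-Oa lies lower in phagocyte-like cells, in all 5 libraries that have both classes.

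The 165 phagocyte-like cells of all libraries formed 7 sub-clusters, again without class II genes, and these stay unnamed. Class II transcripts were not evenly spread over them. The sub-cluster led by Creb5, Adap2 and Psd3 (30 cells) had a summed level of 76055 CPM and that led by Cd209f, Folr2 and Ednrb (19 cells) 23869 CPM, with the other 5 between. The sub-cluster led by Cela2a, Ctrl and Pnlip (28 cells), at 64495 CPM, had acinar enzyme genes in the lead.

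The H2-M and H2-O genes did not follow the sum. In the sub-cluster led by Ccl5, Fscn1 and Glipr2 (27 cells), the summed level was 34715 CPM with 104 CPM of H2-DMa and 20.8 CPM of H2-DMb1, the last from 4 UMIs beside 3607 of Cd74. In the sub-cluster led by Hp, Rnf113a2 and Ly6i (19 cells), of nearly the same summed level at 35575 CPM, H2-DMa stood at 840 CPM and H2-DMb1 at 756 CPM, from 163 UMIs beside 3697 of Cd74. H2-Oa was highest in the sub-cluster led by Nr4a3, Bhlhe40 and Adam23 (14 cells) at 435 CPM from 19 UMIs. It stood at 208 CPM in that led by Cd7, Ifitm1 and Ccl3 (28 cells), at 115 CPM in that led by Ccl5, and at 0 in those led by Cd209f and by Cela2a. These are pooled counts of few cells, with no spread over libraries.

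**Figure D3:**
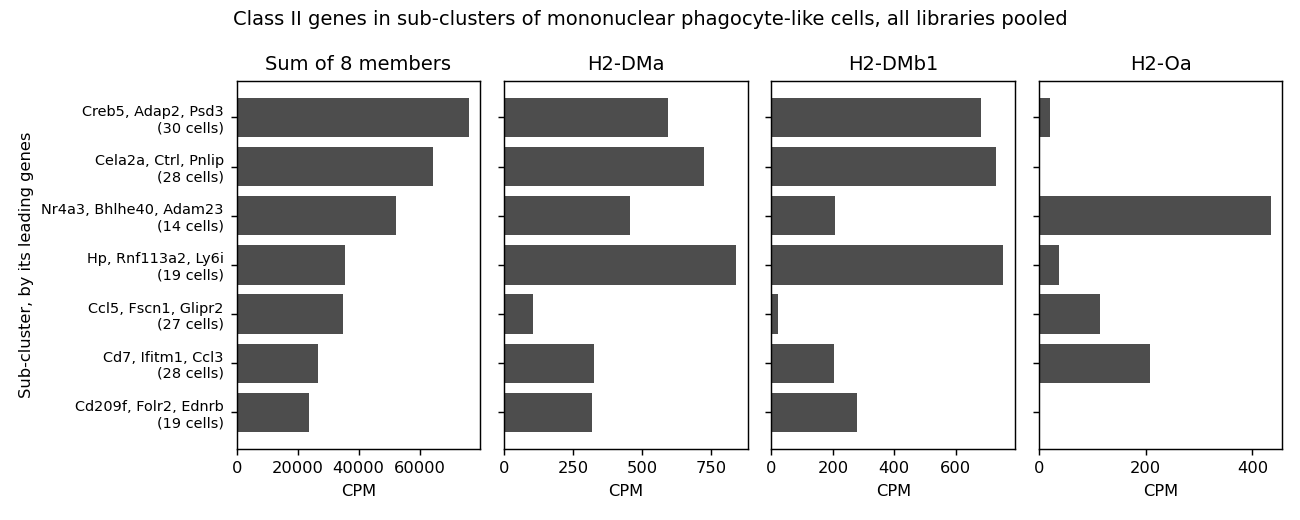
Levels in CPM of the sum of 8 class II genes, H2-DMa, H2-DMb1 and H2-Oa in 7 sub-clusters of phagocyte-like cells, with all libraries pooled and each bar from 1 pooled count. The sub-cluster led by Ccl5, Fscn1 and Glipr2 has the lowest H2-DMa and H2-DMb1 bars, and H2-Oa is highest in that led by Nr4a3, Bhlhe40 and Adam23.

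Plasma-like cells, which switch class II off as B cells mature into antibody-secreting cells, held intermediate and uneven levels. The summed level was 1823 and 342 CPM in EYFP positive runs 1 and 3, and 7706 and 7072 CPM in EYFP negative runs 1 and 2. Both EYFP negative libraries lay above both of these EYFP positive ones, with 11 to 49 cells each. EYFP positive run 2, left out for its 8 cells, held 15372 CPM, above both EYFP negative values, with 219 of its 238 UMIs in 1 cell. In EYFP positive run 1, 1 cell held 133 of 262 UMIs, so no order of the groups is read from this class. Relative to 100 Cd74 UMIs, H2-Aa stood at a median of 12.98 in plasma-like cells and 28.7 in B-like cells, and Ciita at 0.151 in plasma-like cells and 1.46 in B-like cells. H2-Aa, H2-Eb1, H2-DMa, H2-Oa and Ciita were lower relative to Cd74 in plasma-like cells in 4 of 4 libraries, H2-Ab1 in 3 of 4 and H2-DMb1 in 2 of 4. In EYFP positive run 3 these ratios rest on 30 Cd74 UMIs, with 0 of H2-DMa, so the rarer genes say little there. Mki67, a proliferation marker, was among the leading genes of the plasma-like cluster.

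Endothelial-like cells held little class II RNA, and it was unevenly spread over them. The summed level was 130, 260 and 53.4 CPM in EYFP positive runs 1, 2 and 3, and 146, 645 and 43.3 CPM in EYFP negative runs 1, 2 and 3. In EYFP negative runs 1, 2 and 3 these values lay below those of the barcodes under 200 genes, and in EYFP positive runs 1 and 2 above them. Of the 1795 endothelial-like cells, 32 held 10 or more class II UMIs and together carried 773 of the 1975 class II UMIs of the class, with the other 1202 in 1763 cells of 0 to 9 UMIs. Thinned to 1000 UMIs, 6.95%, 13.3% and 0% of endothelial-like cells held a class II UMI in EYFP positive runs 1, 2 and 3, and 16.4%, 35.0% and 0.952% in EYFP negative runs 1, 2 and 3. The 0% in EYFP positive run 3 allows a share of up to 12%. The matching shares of T or NK-like cells were 15%, 8.33% and 9.09% in EYFP positive and 19.4%, 25% and 7.26% in EYFP negative runs 1, 2 and 3.

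The cluster led by Aplnr, Gm13889 and Ptgs1 held the highest endothelial levels in every library in which it had 10 cells. In EYFP positive run 1 it stood at 524 CPM (95% Poisson interval 469 to 584, counting error only), against 29.9 CPM in the cluster led by Id4, Car4 and Esm1, 20.6 CPM in that led by Fbln5, Stmn2 and Sema3g, and 35.1 CPM in the barcodes under 200 genes. In EYFP negative run 1 it stood at 341 CPM, against 127 CPM in the Id4 cluster and 79.1 CPM in the Fbln5 cluster. In EYFP negative run 2 it stood at 989 CPM, against 287 CPM in the Id4 cluster and 336 CPM in the Fbln5 cluster. In EYFP negative run 3 it stood at 118 CPM, against 25.3 CPM in the Id4 cluster and 13.2 CPM in the Fbln5 cluster. Barcodes under 200 genes held 557, 1064 and 221 CPM in EYFP negative runs 1, 2 and 3, above the Aplnr cluster in each. Among the libraries with 10 cells of the Aplnr cluster, it stood above those barcodes only in EYFP positive run 1. EYFP positive runs 2 and 3 had 9 and 8 cells of the cluster, too few for a level. The CPM of such barcodes do not give how much free RNA a cell holds. In EYFP negative run 3, acinar-like cells held 9.87 CPM beside 221 CPM in those barcodes. The part of free RNA in the levels of the cluster was not tested. The shallow cluster led by Unc45b, Rflnb and Fabp4, with a median of 997.5 UMIs per cell, ranged from 53.9 CPM in EYFP negative run 3 to 808 CPM in EYFP positive run 2, where it had 11 cells and 1 cell held 14 of the 18 UMIs.

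**Figure D4:**
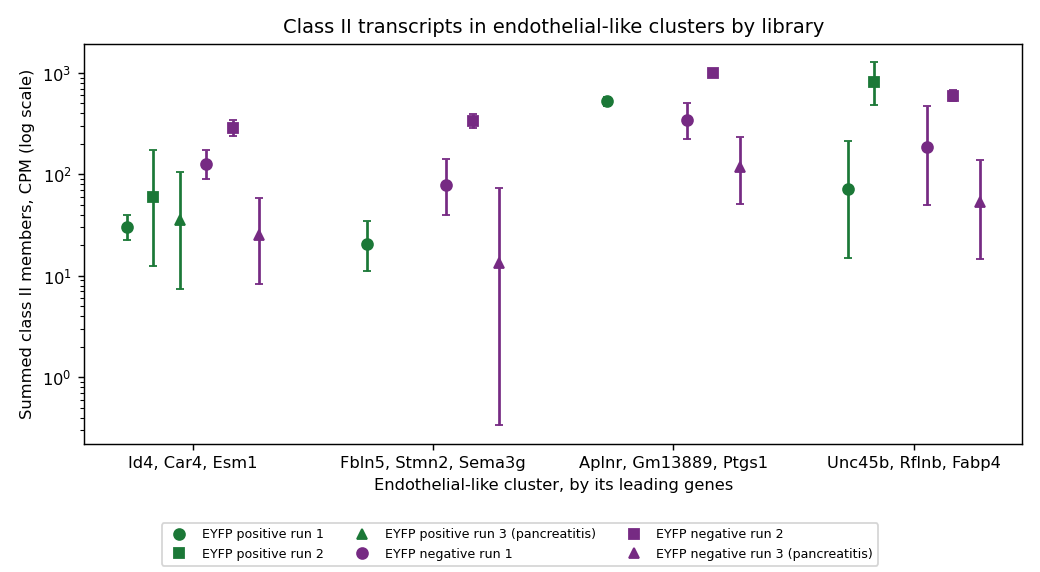
Summed class II level, in CPM on a log scale, in 4 endothelial-like clusters named by their leading genes. Each point is 1 library with at least 10 cells of the cluster, green for EYFP positive and purple for EYFP negative, and bars are 95% Poisson intervals. Within EYFP positive run 1 and within EYFP negative runs 1, 2 and 3 the Aplnr cluster lies above the Id4 and Fbln5 clusters.

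Of the 32 endothelial-like cells with 10 or more class II UMIs, 30 belonged to the Aplnr cluster, 9 from EYFP positive run 1 and 21 from EYFP negative run 2, and they carried 749 of its 1263 class II UMIs. Pecam1 and Kdr, both endothelial receptors, were found in 30 of these 30 cells, and Cd79a and Ptprc, which mark B cells and leukocytes, in 0 of 30. The other 383 cells of the cluster rarely held these 2 markers either, with Cd79a in 8 and Ptprc in 1, so the 0 of 30 says little. Over all endothelial-like cells, 3 of the 32 (9.38%) held a UMI of any of 13 leukocyte markers, against 286 of the other 1763 (16.2%). Icam1, a leukocyte adhesion molecule that inflammation raises, was found in 15 of the 30 cells and in 46 of the other 383 cells of the cluster. The 30 cells, picked by an UMI count, were also deeper, with a median of 5035 UMIs against 3536. These detection counts were not set to equal depth. Icam1 stood out together with Lbp, Thsd7a and Vegfc as leading genes of the 30 cells, and was named after the values were seen.

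The composition of the endothelial set differed from that of B-like cells. Relative to 100 Cd74 UMIs, endothelial-like cells held 67.8, 79.3 and 36.5 H2-Ab1 UMIs in EYFP positive run 1 and EYFP negative runs 1 and 2, against 19.6, 20.3 and 19.9 in B-like cells of the same libraries. H2-DMb1 had a median of 11.2 per 100 Cd74 UMIs in endothelial-like cells and 0.649 in B-like cells, higher in 3 of 3 libraries. This was not particular to endothelial-like cells, since ductal-like cells held 30.4 and 6.91 in EYFP positive run 1 and EYFP negative run 2, where endothelial-like cells held 11.2 and 6.08. The barcodes under 200 genes of EYFP negative run 2 held 42 H2-Ab1 and 178 Cd74 UMIs. H2-Oa had 6 UMIs and Ciita 19 in all endothelial-like cells, so neither level can be read by library.

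T or NK-like cells, which in the mouse lack class II chains, served as a second view of free RNA, with an exception. Their summed level was 442, 129 and 199 CPM in EYFP positive runs 1, 2 and 3, and 145, 884 and 107 CPM in EYFP negative runs 1, 2 and 3. Of 1100 class II UMIs in 664 cells, 682 lay in the 118 cells of the NK or ILC cluster led by Gzma, and 11 of those cells held 607. The 11 cells came from EYFP positive runs 1 (4 cells) and 3 (1 cell) and EYFP negative runs 2 (4 cells) and 3 (2 cells). Ncr1, an activating receptor of NK cells, was found in 3 of the 11 and in 99 of the other 107 cells of the cluster. Ccr6, a chemokine receptor, was found in 7 of the 11 and in 4 of the 107, and Il2ra, the interleukin 2 receptor alpha chain, in 8 and in 6. Cd79a was found in 0 of the 11 and Ptprc in 10. These genes were chosen after their values were seen, and the cells stay unnamed.

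Without that cluster B-like and phagocyte-like cells stood 8.35 and 8.43 above T-like cells on the log2 scale. Endothelial-like cells, 0.73 below the whole T or NK-like class, stood 0.73 above T-like cells, and ductal-like cells 0.45 below them.

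H2-DMa and H2-Oa were high relative to Cd74 in T or NK-like cells. In the cluster led by Cd8b1 (212 cells) there were 72 UMIs of H2-DMa and 25 of H2-Oa beside 36 of Cd74. H2-DMa stood at 53.6 CPM there, at 32.5 CPM in the cluster led by Ikzf2 and at 21.0 CPM in that led by Gm12840. Over the whole T or NK-like class, H2-DMa stood at a median of 22.9 per 100 Cd74 UMIs, against 2.69 in B-like cells, and H2-Oa at 14.1 against 1.73, each higher in 4 of 4 libraries.

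Ductal-like cells held 473 class II UMIs, of which 162 were in 1 cell of EYFP negative run 2. The summed level was 30.1, 47.8 and 29.5 CPM in EYFP positive runs 1, 2 and 3, and 78.7, 378 and 40.4 CPM in EYFP negative runs 1, 2 and 3. H2-Oa was at 0 UMIs in all 6 libraries, which allows up to 1.84 CPM in the deepest and 30.3 CPM in the shallowest. H2-DMb1 averaged 9.51 ± 3.87 CPM (SD, n = 6) and stayed between 4.30 and 13.3 CPM, from 31 UMIs in all. It did not follow Cd74, which ranged from 10.1 to 192 CPM.

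Acinar-like cells ranged from 0 of 278321 UMIs in EYFP positive run 1, which allows up to 10.8 CPM for a count of 0, to 1138 CPM in EYFP positive run 2. The median of the 5 libraries was 13.6 CPM. In EYFP positive run 2, 31 of the 36 cells lay in a shallow cluster led by Rbpjl, Gm49016 and Ctrc, with a median of 1611 UMIs per cell. That cluster had 3 cells in EYFP positive run 1, 7 in EYFP negative run 2 and 0 in the other libraries. In EYFP negative run 3 the 370 acinar-like cells held 30 class II UMIs, or 9.87 CPM, and in EYFP positive run 3 the 91 cells held 11, or 13.6 CPM. Fibroblast-like cells held 8.73 to 198 CPM in the 3 EYFP negative libraries and erythroid-like cells 4.48 and 60.7 CPM in EYFP negative runs 3 and 2. Pericyte or smooth muscle-like cells held 4317 CPM in EYFP negative run 2, where 1 cell carried 126 of the 132 UMIs, and none in the 13 cells of EYFP negative run 3, which allows up to 104 CPM for a count of 0.

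Genes outside the set with the most similar pattern were ranked by Pearson correlation of log2(CPM + 10) with the summed members, over 45 class and library combinations of 10 classes and 2926 genes with a mean of at least 50 CPM. The points share libraries and depth, and the values are a description. Rnase6 (r = 0.93), Napsa (0.93), Ctss (0.91), Ly86 (0.91) and Cybb (0.91) came first. Napsa and Ctss are proteases, Rnase6 a secreted ribonuclease, Ly86 the MD-1 partner of the receptor RP105 and Cybb the heme subunit of the phagocyte oxidase. Each member followed the sum of the other 7, from r = 0.87 for H2-Oa to 0.99 for Cd74.

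EYFP positive and EYFP negative cells of the same class were compared with edgeR's quasi-likelihood test on counts summed per library, with condition in the model and Benjamini-Hochberg adjustment over all genes tested. No class II gene passed an adjusted p of 0.05 in any class, though some did under the alternative settings named below. In B-like cells 0 of 8 members were called (0 at an unadjusted p under 0.05, 0 with DESeq2), beside 0.085% of all 5884 genes. Their log2 fold changes lay between -0.33 ± 0.19 for H2-Ab1 and 0.38 ± 0.24 for H2-DMb1 (SE), with a median of -0.15 over the members and 0.00033 over all genes. With run as a block, 22 genes were called in place of 5, none of them a member.

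In phagocyte-like cells 0 of 8 members were called (0 at an unadjusted p under 0.05, 0 with DESeq2), beside 0% of 2550 genes, where 150 genes had an unadjusted p under 0.05 and DESeq2 called 7. With run as a block 8 genes were called, no member among them. All 8 fitted fold changes were below 0, from -0.29 ± 0.39 for H2-Aa to -0.98 ± 0.65 for Ciita (SE), with a median of -0.44 over the members and 0.015 over all genes. No EYFP positive pancreatitis library entered this fit, and the raw means of H2-Aa were 7547 CPM in EYFP positive and 6608 CPM in EYFP negative libraries. The signs of Cd74, H2-Aa, H2-Ab1, H2-Eb1 and H2-Oa depended on which library was left out. Cd74 lay between -0.87 and 0.11, and was above 0 without EYFP positive run 1 or without EYFP negative run 2.

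In endothelial-like cells 4 members passed the filter on low counts, and 0 of 4 were called (2 at an unadjusted p under 0.05, 0 with DESeq2), beside 0.0278% of 7186 genes. With run as a block 8 genes were called in place of 2, no member among them. H2-Eb1 had a log2 fold change of -2.06 ± 0.68, H2-Aa of -1.86 ± 0.64, Cd74 of -1.27 ± 0.70 and H2-Ab1 of -0.99 ± 0.50 (SE, adjusted p = 0.99996 each). H2-Aa stood at 19.7, 23.0 and 0 CPM in EYFP positive runs 1, 2 and 3, and at 16.9, 103 and 9.63 CPM in EYFP negative runs 1, 2 and 3, so the groups overlapped and EYFP negative run 2 was the highest. That library also had the highest level in barcodes under 200 genes, whose part in the difference was not tested. Most endothelial-like cells of EYFP positive run 1 lay in the Id4 and Fbln5 clusters, and most of EYFP negative run 2 in the Aplnr and Unc45b clusters. Cd74 ranged from -1.83 to 0.41 when each library was left out in turn, and was above 0 without EYFP negative run 2.

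In T or NK-like cells 0 of 5 members were called (0 at an unadjusted p under 0.05, 0 with DESeq2), beside 0.0382% of 5233 genes, and 15 genes in place of 2 were called with run as a block, no member among them. The 5 fold changes lay between -0.23 ± 0.90 for H2-Ab1 and -0.88 ± 0.45 for H2-DMa (SE). The signs of the chain genes depended on the setting: with run as a block Cd74, H2-Ab1 and H2-Eb1 stood at 0.12, 0.32 and 0.0039, and all 4 chain genes were above 0 with stricter cells and without shared barcodes. In ductal-like cells no member passed the filter, and 0.0881% of 6808 genes were called. Without the filter 4 of 7 members were called there, among 40 genes in all. With stricter cells, which changed which genes passed it, 4 of 4 were called, among 17 genes in all. EYFP negative run 2 held 369 of the 473 class II UMIs of ductal-like cells, 162 of them in 1 cell. Leaving out EYFP positive run 3 or EYFP negative run 3 also gave 4 members called, where leaving out each library in turn gave 5 to 20 genes called.

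Pancreatitis libraries were set against homeostasis libraries in the same fits. In B-like cells 0 of 8 members were called (1 at an unadjusted p under 0.05, 0 with DESeq2), beside 0.476% of 5884 genes. Cd74 had a log2 fold change of 0.0072 ± 0.18 (SE), and stood at 14867 and 17549 CPM in the pancreatitis libraries, within the 12999 to 19080 CPM of the homeostasis libraries. H2-DMb1, at -0.50 ± 0.23 (adjusted p = 0.674), and H2-Eb1, at -0.30 ± 0.20 (adjusted p = 0.883), were farthest from 0. H2-DMb1 was at 82.6 and 87.5 CPM in the pancreatitis libraries and at 93.8 to 186 CPM in the homeostasis libraries. The 82.6 CPM of EYFP positive run 3 came from 23 UMIs, with a 95% Poisson interval of 52.4 to 124 CPM. How many of all 5884 genes separated in the same way was not counted, so this order is not read as a result about H2-DMb1.

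In phagocyte-like cells 0 of 8 members were called (3 at an unadjusted p under 0.05, 0 with DESeq2), beside 0.0392% of 2550 genes. The pancreatitis arm was 1 library of 22 cells, so its SEs and p-values rest on the spread of the others. It stood below all 4 homeostasis libraries for the 4 chain genes. How many of all 2550 genes were also lowest in that library was not counted, and the chain genes follow each other across classes. This order is thus not read as a result about the members. H2-Aa was at 3426 CPM in pancreatitis, against 6491, 8603, 6957 and 9440 CPM in homeostasis, with a log2 fold change of -1.52 ± 0.51 (SE, adjusted p = 0.434). H2-Eb1 was at 2935 CPM in pancreatitis, against 5221, 8473, 5970 and 9748 CPM in homeostasis, with a log2 fold change of -1.68 ± 0.59 (SE, adjusted p = 0.456). All 8 fitted values were below 0, with a median of -1.35 over the members and -0.096 over all genes. The values for H2-DMa (-0.26 ± 0.61) and H2-DMb1 (-0.39 ± 0.86) were nearest to 0, and their raw CPM were higher in pancreatitis, at 439 and 376 against means of 388 and 330 in homeostasis. EYFP positive run 3, left out for its 8 cells, held 6388 CPM of H2-Aa and 823 CPM of H2-DMa. Sums over cells do not separate fewer class II cells in a class from less RNA per cell. In EYFP negative run 3, 5 of 22 cells held no class II UMI. Such cells were 2 of 32 and 2 of 81 in EYFP negative runs 1 and 2. They were 2 of 10 and 1 of 12 in EYFP positive runs 1 and 2. The median cell held 13525 CPM in EYFP negative run 3. It held 12432 and 33312 CPM in EYFP negative and 30501 and 39801 CPM in EYFP positive runs 1 and 2. The 90th percentiles were 95327, 68272, 97840, 83248 and 69382 CPM in that order. Which part lowered the sum was not tested.

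In endothelial-like cells 0 of 4 members were called (4 at an unadjusted p under 0.05, 0 with DESeq2), beside 0.0417% of 7186 genes. H2-Ab1 was at 13.3 and 4.82 CPM in the pancreatitis libraries, from 2 UMIs each, and at 33.8, 53.6, 43.1 and 110 CPM in the homeostasis libraries. How many of all 7186 genes separated in the same way was not counted, so this order is not read as a result about H2-Ab1. The Aplnr cluster made up 8 of 30 and 16 of 155 cells in the pancreatitis libraries. It made up 108 of 571, 9 of 38, 22 of 156 and 250 of 845 in the homeostasis libraries, and its part in the difference was not tested. The log2 fold change of H2-Ab1 was -3.17 ± 0.78 (SE, adjusted p = 0.751), and those of H2-Eb1, H2-Aa and Cd74 were -3.07 ± 1.07, -2.98 ± 0.98 and -2.91 ± 0.96 (SE, adjusted p = 0.985 each). Without the filter on low counts all 4 were called, among 64 genes in all in place of 3. Their adjusted p were 5.8e-05 for H2-Ab1, 0.00621 for H2-Eb1, 0.00158 for H2-Aa and 7.8e-08 for Cd74.

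T or NK-like cells also had fitted values below 0, and cells with 10 or more class II UMIs carried much of the counts in libraries of both conditions. In homeostasis, 4 cells held 400 of 621 class II UMIs in EYFP negative run 2, and 4 cells held 111 of 125 in EYFP positive run 1. EYFP positive run 2 and EYFP negative run 1 had no such cell. In pancreatitis, 1 cell held 46 of 56 in EYFP positive run 3, and 3 cells held 65 of 215 in EYFP negative run 3. These values are therefore not a view of free RNA alone. Of 5 members 0 were called (3 at an unadjusted p under 0.05, 0 with DESeq2), beside 0.573% of 5233 genes. H2-Eb1 had a log2 fold change of -2.90 ± 0.73 (SE, adjusted p = 0.140), H2-Aa of -3.02 ± 0.90 (SE, adjusted p = 0.293) and H2-Ab1 of -3.38 ± 1.06 (SE, adjusted p = 0.333). Without barcodes shared by libraries H2-Eb1 passed the threshold at -3.03, among 54 genes called in all. Without EYFP negative run 1 or EYFP positive run 2, 3 and 1 members did, where leaving out each library in turn gave 10 to 63 genes called. Without the NK or ILC cluster only H2-DMa passed the filter on low counts, at -1.02, and the chain genes could not be tested. In ductal-like cells no member was tested, and 0.308% of 6808 genes were called.

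**Figure D5:**
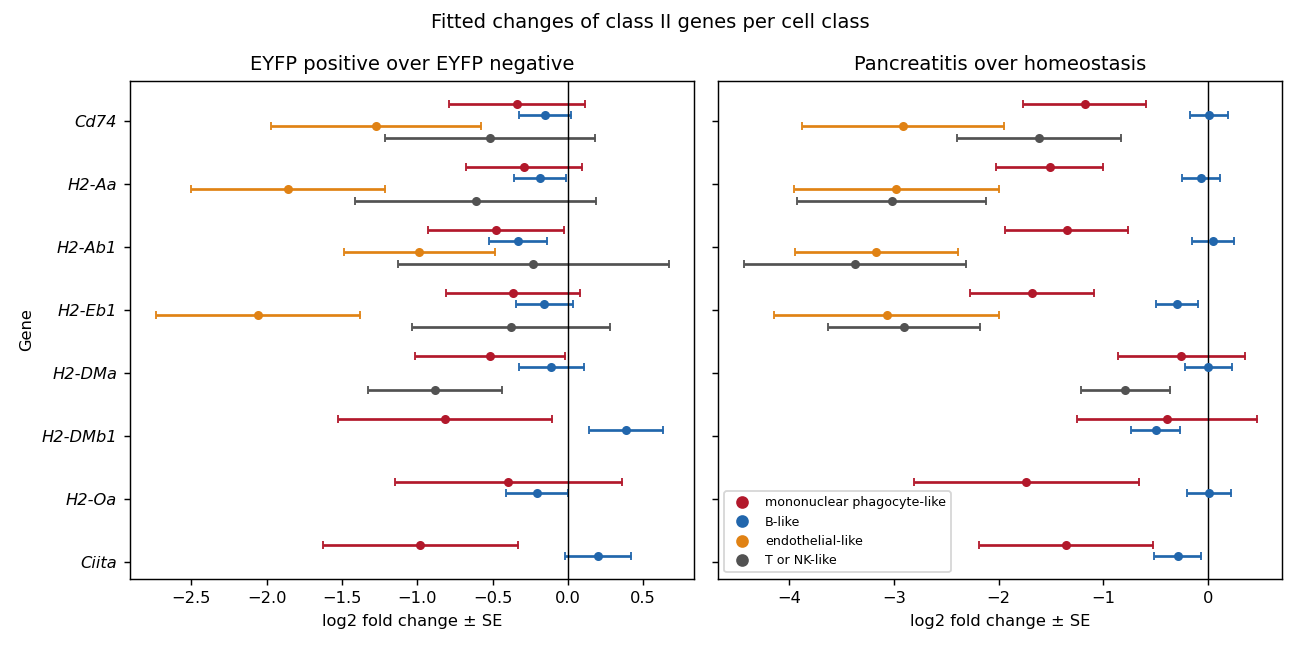
Fitted log2 fold changes with SE of 8 class II genes, EYFP positive over EYFP negative (left) and pancreatitis over homeostasis (right), by cell class. Genes that did not pass the filter on low counts in a class have no point. B-like values lie between -0.50 and 0.38 over both panels, and the endothelial-like and T or NK-like values of Cd74, H2-Aa, H2-Ab1 and H2-Eb1 in pancreatitis lie between -3.38 and -1.61.

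Whether the EYFP difference itself changed with pancreatitis was tested as an interaction in B-like, endothelial-like, ductal-like and T or NK-like cells, with 1 pancreatitis library per EYFP group assumed to vary like the others. Of 23 member tests 0 were called (2 at an unadjusted p under 0.05, 0 with DESeq2), with 0.98 as the lowest adjusted p. The background was 0% in B-like, endothelial-like and T or NK-like cells, where 161, 197 and 119 genes had an unadjusted p under 0.05 and DESeq2 called 0, 2 and 1, and 0.351% of 7968 genes in ductal-like cells.

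The 8 lists of genes that act with class II held 49 genes outside the members. In the EYFP comparison 149 gene tests over the 5 classes gave 0 calls (12 at an unadjusted p under 0.05, 0 with DESeq2), and in the pancreatitis comparison 149 tests gave 0 calls (18 at an unadjusted p under 0.05, 0 with DESeq2). The values of lowest p are given here without a call.

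The pancreatitis arm of the phagocyte-like fit was 1 library of 22 cells, EYFP negative run 3, assumed to vary like the others, and a shift shared by a list cannot be told apart from that library. In it all 8 tested MHC class I genes were below 0, with a median log2 fold change of -1.31 against -0.096 over all genes. Tap1, the peptide transporter of the class I pathway, was at -3.82 ± 0.99 (SE, adjusted p = 0.276) and Psmb9, an immunoproteasome subunit, at -1.82 ± 0.56 (SE, adjusted p = 0.401). The 4 tested costimulators had a median of -1.80, with Icosl, the ligand of ICOS, at -2.92 ± 0.99 (SE, adjusted p = 0.439) and Cd40, the receptor of CD40 ligand, at -2.55 ± 0.97 (SE, adjusted p = 0.481). The 6 tested endosomal processing genes had a median of -0.062, with the cathepsins Ctsl at -0.79 ± 0.64 (SE, adjusted p = 0.832) and Ctsd at 0.97 ± 0.90 (SE, adjusted p = 0.868). Of the interferon gamma axis, Irf1, a transcription factor that interferon gamma induces, was at -1.80 ± 0.72 (SE, adjusted p = 0.496), and 2 of 6 tested genes were above 0.

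In phagocyte-like cells the EYFP values of the same lists were also mostly below 0. All 8 MHC class I genes were, with a median of -0.80 and H2-K1, a class I heavy chain, at -1.11 ± 0.33 (SE, adjusted p = 0.536). The 4 costimulators had a median of -2.06, with Cd86 at -1.98 ± 0.60 (SE, adjusted p = 0.557). They come from the same fit as the pancreatitis values above and share all its libraries, so the 2 sets of values are not independent.

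In T or NK-like cells Ifng, the cytokine that induces Ciita in other cells, was at 1.49 ± 0.38 in pancreatitis (SE, adjusted p = 0.149) and Ifngr1, a chain of its receptor, at 0.86 ± 0.27 (SE, adjusted p = 0.348). In endothelial-like cells Ifngr2, the other receptor chain, was at 0.86 ± 0.27 and Socs1, an inhibitor of the pathway, at -1.42 ± 0.47 (SE, adjusted p = 0.985 each).

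In B-like cells 3 of 4 Cd74 partners were tested, and Cxcr4, which binds MIF together with CD74, was at -1.60 ± 0.43 in pancreatitis (SE, adjusted p = 0.156). Of the class II transcription factors, 6 of 7 were tested in B-like cells with a median of 0.27 in pancreatitis, Nfyb, a subunit of the Y-box factor NF-Y, being of lowest p at 0.54 ± 0.30 (SE, adjusted p = 0.815). The ubiquitin ligase March1, which takes class II off the surface, was at 0.42 ± 0.21 in pancreatitis (SE, adjusted p = 0.737). The region neighbours H2-DMb2 and H2-Eb2 were at -0.25 ± 0.23 and -0.07 ± 0.23 (SE, adjusted p = 0.951 and 0.999).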

How the data were processed

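Gene by cell tables of UMI counts from 6 droplet libraries were used as deposited by the authors, made with Cell Ranger 2.1.0 per the submitters' processing notes. Those notes name GRCh38, while the file headers give software version 3.1.0 and the rows are 31053 mouse genes, so the build behind the mouse counts is not given in these sources. The members and gene lists were chosen with earlier results of these data known.

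A barcode was kept if it held 200 or more genes, mitochondrial UMIs made up no more than 20%, and Scrublet (in scanpy, 20 components) did not call it a doublet. Scrublet removed 0 to 26 barcodes per library. Cells were clustered with scanpy 1.11.5 without class II genes (2000 variable genes, 30 components, 15 neighbours, resolution 1), which gave 19 clusters, and classes were named from 18 marker lists. Counts were summed per class and library with at least 10 cells, and tested with edgeR 4.0.16 (quasi-likelihood, filter on low counts, EYFP and condition as terms), adjusted over all genes and tested on simulated data. DESeq2 1.42.0 was an alternative. The EYFP libraries of the same run were not independent, since deviations from the group means correlated in every run of the 4 classes checked (0.134 to 0.382). The main fits had no term for run, and run as a block was an alternative for EYFP only. Where both libraries of run 3 were used, the pancreatitis tests counted them as separate, so their SEs and p-values may be too small. Intervals are 95% Poisson and cover counting error only. The limit for a count of 0 is 3 counts. Shares of cells were set to 1000 UMIs per cell.

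The 8 members are named in every class. Other genes are the up to 2 of lowest p per list, class and comparison, not all of which are printed, and the 5 genes of most similar pattern. Any other gene was named after its values were seen. Alternatives covered the filter, scaling, tool, run block, stricter cells, cells without leukocyte marker UMIs, clustering with class II genes, removal of high-abundance genes and each library left out. Those on shared barcodes and the NK or ILC cluster were chosen after seeing the data.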

Additional observations from a re-analysis of the deposited data

Results flagged for a closer look

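In ductal-like cells the EYFP difference in pancreatitis differed from that in homeostasis for 28 genes by edgeR's test of the interaction. No class II gene was among them, and EYFP negative run 3 held 11 ductal-like cells, 7 of them with a barcode shared with another library.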

How the results depend on the processing

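For EYFP and pancreatitis, the class II genes that passed the filter in the main fits had 605 alternative values. Of these 542 kept their sign and side of the threshold, 16 passed it and 47 turned sign. Members left untested in a main fit, as all were in ductal-like cells, are not among the 605. The ductal-like calls of members under other settings are therefore not among the 16. Of 177 counts of called genes 83 stayed within 1.5 times. Why values and counts moved was not tested. EYFP counts are given before pancreatitis counts, and interaction counts last. Without the filter on low counts the calls were 31, 114 and 2 in B-like, 45 and 84 in phagocyte-like, 30, 64 and 5 in endothelial-like, 40 and 87 in ductal-like, and 77, 139 and 2 in T or NK-like cells. In that setting 3 of 8 members were called in endothelial-like cells for EYFP, 4 of 8 for pancreatitis, 4 of 8 in T or NK-like cells for pancreatitis and 4 of 7 in ductal-like cells for EYFP. DESeq2 called 16 in B-like cells for pancreatitis, 7 and 13 in phagocyte-like, 4, 6 and 2 in endothelial-like, 3 and 10 in ductal-like, and 10, 17 and 1 in T or NK-like cells. With the replicate block the EYFP counts were 22 in B-like, 8 in phagocyte-like, 8 in endothelial-like and 15 in T or NK-like cells, and no call of a member changed. With class II genes in the clustering, B-like cells had 0 for EYFP and endothelial-like cells 12 for the interaction. Without haemoglobin, immunoglobulin and enzyme genes, the counts were 1 in B-like cells for EYFP, 2 in phagocyte-like cells for pancreatitis, 0 and 1 in endothelial-like, 0 for EYFP and 5 for the interaction in ductal-like, and 1 in T or NK-like cells for EYFP. Without shared barcodes they were 0 in B-like cells for EYFP, 5 and 6 in endothelial-like, and 4 and 54 in T or NK-like cells. Stricter cells gave 17 and 5 in ductal-like cells, where 4 of 4 members were called for EYFP, and 18 in T or NK-like cells for pancreatitis. Ductal-like cells without leukocyte marker UMIs gave 10 for pancreatitis, and T-like cells without the NK or ILC cluster 6 for EYFP. Without that cluster the log2 level differences were 8.35 for B-like, 8.43 for phagocyte-like, 0.73 for endothelial-like and -0.45 for ductal-like cells.

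In B-like cells in pancreatitis, Cd74, H2-DMa and H2-Oa turned to -0.0051, -0.010 and -0.0046 with DESeq2 size factors, to -0.0050, -0.011 and -0.0017 with DESeq2 and to -0.058, -0.10 and -0.074 with stricter cells. In T or NK-like cells the EYFP value of H2-Ab1 turned to 0.0052 with DESeq2. There Cd74, H2-Ab1 and H2-Eb1 turned to 0.12, 0.32 and 0.0039 with the block. Cd74, H2-Aa, H2-Ab1 and H2-Eb1 turned to 0.38, 0.40, 1.19 and 0.48 with stricter cells, and to 0.10, 0.063, 0.58 and 0.24 without shared barcodes.

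With each library left out, EYFP counts ranged from 0 to 13 in B-like, 0 to 48 in phagocyte-like, 1 to 5 in endothelial-like, 5 to 20 in ductal-like and 1 to 17 in T or NK-like cells. Pancreatitis counts ranged from 3 to 116, 3 to 60, 0 to 10, 10 to 58 and 10 to 63 in the same order, and interaction counts from 1 to 8 in B-like, 0 to 5 in endothelial-like and 0 to 2 in T or NK-like cells. Member values ranged for EYFP in B-like cells from -0.024 to 0.34 (Ciita). For pancreatitis in B-like cells they ranged from -0.099 to 0.17 (Cd74), -0.15 to 0.034 (H2-Aa), -0.11 to 0.22 (H2-Ab1), -0.083 to 0.066 (H2-DMa) and -0.060 to 0.086 (H2-Oa). For EYFP in phagocyte-like cells they ranged from -0.87 to 0.11 (Cd74), -0.64 to 0.020 (H2-Aa), -0.91 to 0.13 (H2-Ab1), -0.90 to 0.11 (H2-Eb1) and -2.99 to 0.40 (H2-Oa), and in endothelial-like cells from -1.83 to 0.41 (Cd74). In T or NK-like cells they ranged for EYFP from -1.24 to 1.40 (Cd74), -0.98 to 0.39 (H2-Ab1) and -0.996 to 0.051 (H2-Eb1), and for pancreatitis from -2.504 to 0.039 (Cd74) and -1.06 to 0.064 (H2-DMa).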
